A study of Homo sapiens with 8 samples.

Results

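Branch sites listed for all U2 complexes and for complexes carrying tagged mutant SF3B1 were compared within K562 cells of the K700E genotype. The comparison used 2 deposited tables, from anti-SF3A2 and from anti-Flag immunoprecipitation, matched by cluster identifier and by the position of each branch point. Together they held 117129 read clusters out of 122826 in the 4 tables of the series.

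The U2 snRNP recognises the intron branch site early in spliceosome assembly, by pairing of U2 snRNA with the sequence around the branch point. The branch point is the nucleotide, usually an adenosine, that attacks the 5′ splice site in the first step of splicing, and it lies upstream of the 3′ splice site. SF3B1 clamps the duplex of U2 snRNA and branch site, and SF3A2 belongs to the SF3A complex of the same particle. K700E lies in the HEAT repeats of SF3B1, recurs in myeloid neoplasms, and is known for the use of cryptic 3′ splice sites with other branch points.

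K562 is an erythroleukemia line. The cells analysed here were engineered to express SF3B1 with a 3xFlag tag and the K700E substitution, and were grown in IMDM with 10% serum. The anti-SF3A2 table stands for 3 libraries and the anti-Flag table for 1. Tagged wild-type cells, with the same numbers of libraries, were used only for side-by-side values. Whether the cells also held untagged SF3B1, and whether each line was a single clone, is not stated in the sources used, nor whether replicates were separate cultures. Libraries made without antibody or from unselected extract were not analysed here. SF3A2 does not depend on the tag, so its table covers complexes with any SF3B1 present, while the Flag table covers those with the tagged mutant.

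Each table lists clusters of reads on hg19 and up to 3 ranks of predicted branch points per cluster, with no read numbers, strand or gene. The depth behind a cluster is therefore unknown, and the cell line could not be checked against marker genes. A cluster missing from a table may have fewer bound complexes, less of its transcript or fewer reads, and these cannot be told apart. With 1 table per immunoprecipitation there is no replicate error and no p-value. Parentheses hold 95% Wilson intervals, computed over the clusters or the branch points. They cover counting error only and treat neighbouring clusters as independent.

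The Flag table was almost contained in the SF3A2 table. Of 73582 Flag clusters, 72726 (98.8%, 98.8 to 98.9%) were also listed with SF3A2, and 856 were not. Of 116273 SF3A2 clusters, those 72726 made up 62.5% (62.3 to 62.8%), and 43547 were listed with SF3A2 only. The share of 62.5% is the background for each share of SF3A2 clusters listed in Flag given below. In wild-type cells 73.6% of the SF3A2 clusters were in Flag (73.3 to 73.9%) and 91.3% of the Flag clusters were in SF3A2. The SF3A2 table was 1.58 times as long as the Flag table in K700E cells and 1.24 times in wild-type cells, and the shares move with these sizes.

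Clusters at annotated 3′ splice sites were listed in both immunoprecipitations more often than others. The authors marked them by a suffix of the identifier, and they are called marked clusters here. Marked clusters made up 67.1% of the clusters of both tables (66.8 to 67.5%), 50.4% of those listed with SF3A2 only and 29.9% of those listed with Flag only (26.9 to 33.1%). Seen from the SF3A2 table, 69.0% of 70777 marked clusters were in Flag (68.6 to 69.3%), against 52.6% of 45496 unmarked clusters (52.1 to 53.0%), an odds ratio of 2.00 (1.96 to 2.05). The difference was smaller among clusters with an equal number of SF3A2 branch points. The odds ratio was 1.43 (1.36 to 1.49) with 1 branch point, 1.42 with 2 and 1.33 (1.25 to 1.41) with 3. It also varied with spacing. Among clusters lying 5000 nt or more from the nearest other cluster it was 1.06 (0.992 to 1.12), with 55.5% of marked and 54.1% of unmarked clusters listed in Flag, so that the intervals overlapped. This range held 71.7% of the 3401 unmarked clusters of 15 to 24 nt, and 73.7% of those 3401 were in Flag. A value for this range without such short clusters was not computed. Among clusters 50 to under 200 nt from the nearest, the odds ratio was 4.37 (4.09 to 4.67), with 76.2% and 42.3%. In wild-type cells the odds ratio over all SF3A2 clusters was 3.23 (3.13 to 3.33). It was 2.00 (1.87 to 2.15) there among clusters 5000 nt or more from the nearest.

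Listing in Flag varied over a wider range with the number of branch points that SF3A2 listed in a cluster than with the mark. Of 36265 clusters with 1 SF3A2 branch point, 28.0% were in Flag (27.5 to 28.5%). The share was 57.3% (56.7 to 57.8%) of 26576 clusters with 2 branch points and 88.9% (88.6 to 89.2%) of 49525 with 3. Clusters with 4 or more did not continue the rise, at 85.1% (83.9 to 86.1%) of 3907. Accordingly 60.0% of the clusters listed with SF3A2 only had a single branch point (59.5 to 60.4%), against 14.0% of the clusters of both tables in SF3A2. The number may follow read depth, which is unknown, and its part in the result was not tested.

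By span, short clusters stood apart. Most clusters were near 34 nt, the median of the clusters of both tables, with quartiles of 33 and 37 nt, and the SF3A2-only clusters had a median of 35 nt with quartiles of 32 and 38 nt. A set of 3489 SF3A2 clusters spanned 15 to 24 nt, and 73.0% of them were in Flag (71.5 to 74.4%). This held for the 3401 unmarked ones, at 73.7% (72.2 to 75.2%), while the 88 marked ones were at 44.3% (34.4 to 54.7%). Longer unmarked clusters were in Flag in 50.9% of cases (50.4 to 51.3%) and longer marked ones in 69.0%. The share dropped to 34.6% (33.2 to 36.1%) for 4044 clusters of 25 to 29 nt, reached 65.9% for 30 to 34 nt and 65.7% for 35 to 39 nt, and was 50.1% for 40 to 44 nt. Clusters of 50 nt and more, up to 137 nt, were in Flag in 43.5% of cases (41.3 to 45.7%). In the plot by span, the shares of unmarked clusters were lowest between 25 and 27 nt, below those of shorter and of most longer clusters. Marked clusters were equally low there, but too few were shorter than 25 nt to be plotted by single nt.

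**Figure D1:**
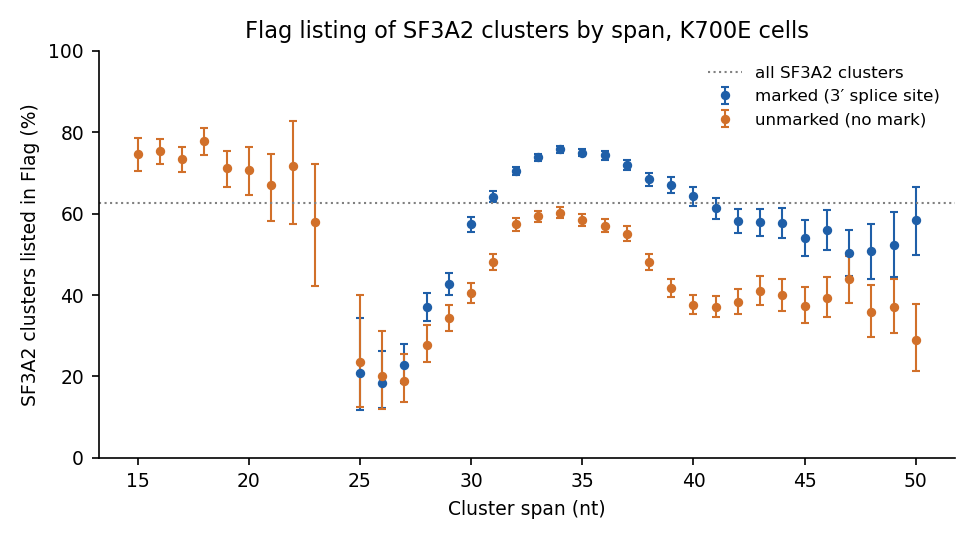
Percent of SF3A2 clusters of K700E cells that were listed in Flag (vertical axis) by cluster span in nt (horizontal axis), for marked (blue) and unmarked (orange) clusters. Bars are 95% Wilson intervals, spans with under 30 clusters are left out, and the dotted line is the share of all SF3A2 clusters, 62.5%. Unmarked clusters of 15 to 20 nt lie above 70%, both kinds are at 18.3 to 23.5% from 25 to 27 nt, and marked clusters lie above unmarked ones from 28 nt on.

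The short clusters differed from the others in more than span. Only 2.52% of them carried the 3′ splice site mark (2.05 to 3.10%), against 62.7% of clusters of 25 nt and more. They were isolated, with a median gap of 24663 nt to the nearest cluster, against 870 nt, and 70.7% lay 5000 nt or more from any other (69.1 to 72.1%), against 11.7%. Their span was at or below the shortest insert of 24 nt that the labels give. In shared short clusters SF3A2 listed 1.74 branch points and Flag 1.61, a difference of 0.125 (0.102 to 0.147, normal interval), while longer shared clusters had 2.59 and 1.84. They were also frequent in wild-type cells, where 88.7% of them were in the SF3A2 table (87.6 to 89.7%) and 61.7% in the Flag table (60.1 to 63.3%). For longer clusters these shares were 68.7% and 58.7%. Among unmarked clusters alone they were 89.4% and 62.3% for short ones, against 61.5% and 46.6% for longer ones.

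From 50 to under 200 nt, listing was lower in unmarked clusters and higher in marked clusters than in the ranges of wider gaps. Of 2515 unmarked clusters with a gap of 50 to 99 nt to the nearest cluster, 37.1% were in Flag, and of 5466 with a gap of 100 to under 200 nt, 44.7% (43.4 to 46.0%). From 200 nt on, the share was 54.1 to 56.8% in each range of gaps. The range of 5000 nt and more held 71.7% of the 3401 unmarked clusters of 15 to 24 nt, of which 73.7% were in Flag. Its share without these short clusters was not computed, so a fall among longer unmarked clusters may be hidden. Marked clusters went the other way, with 79.3% (77.2 to 81.2%) at 50 to 99 nt, 75.5% at 100 to under 200 nt and 55.5% at 5000 nt and more. Under 50 nt both trends broke, with 64.6% of marked (62.3 to 66.9%) and 44.3% of unmarked clusters (42.2 to 46.5%) in Flag. Over all kinds of pairs together, close neighbours also tended to differ in listing, but the pooled shares mix marked and unmarked clusters. Where 2 successive SF3A2 clusters were 50 to 99 nt apart and the first in file coordinates was in Flag, the second was in Flag in 39.4% of cases (36.6 to 42.3%). Where the first was not in Flag, the second was in 67.4% (64.6 to 70.1%). At 500 to under 1000 nt these shares were 66.7% and 64.6%.

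In close pairs of a marked and an unmarked cluster, Flag mostly listed the marked cluster alone. There were 1251 such successive pairs at 50 to 99 nt. Flag listed the marked cluster alone in 802 of them, the unmarked cluster alone in 56, both in 200 and neither in 193. At 1000 to under 5000 nt, 13566 pairs gave 5109 with the marked cluster alone, 1715 with the unmarked cluster alone, 4986 with both and 1756 with neither.

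The listing of the unmarked partner depended on the side on which it lay. Because the tables give no strand, the sides were told apart by the ends of the marked cluster, of which 1 is closer to the main branch points than the other. In clusters of 30 to 38 nt this nearer end had a median distance of 12 nt to the main branch point. At 50 to 99 nt on the nearer-end side, 78 of 791 unmarked clusters were in Flag, or 9.86% (7.97 to 12.1%). On the other side it was 176 of 450, or 39.1% (34.7 to 43.7%). The marked partners were listed alike, in 80.9% (78.0 to 83.5%) and 78.9% (74.9 to 82.4%) of these pairs. At wider gaps the marked partners also differed by side. With the unmarked cluster on the nearer-end side, 76.2% were in Flag at 200 to under 500 nt, against 80.8% with it on the other side. The shares were 73.8% and 79.4% at 500 to under 1000 nt, and 70.5% and 77.5% at 1000 to under 5000 nt. At 100 to under 200 nt the unmarked clusters were in Flag in 18.8% (17.1 to 20.6%) and 49.1% (46.2 to 52.1%). From 200 to under 500 nt the shares were 44.5% and 47.5%, with overlapping intervals, and under 50 nt they were 18.3% and 19.9%, again overlapping. In bins of 25 nt, the nearer-end side was still lower from 200 to under 250 nt. At larger distances the order was reversed and the difference small, with 51.3% on the nearer-end (2998 of 5840) and 47.9% on the other side (3657 of 7639) at 1000 to under 5000 nt, and 53.7% and 50.1% at 5000 nt and more. In wild-type cells the values at 50 to 99 nt were 12.4% (10.4 to 14.6%) and 38.9% (33.5 to 44.7%), so the sides differed there as well.

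**Figure D2:**
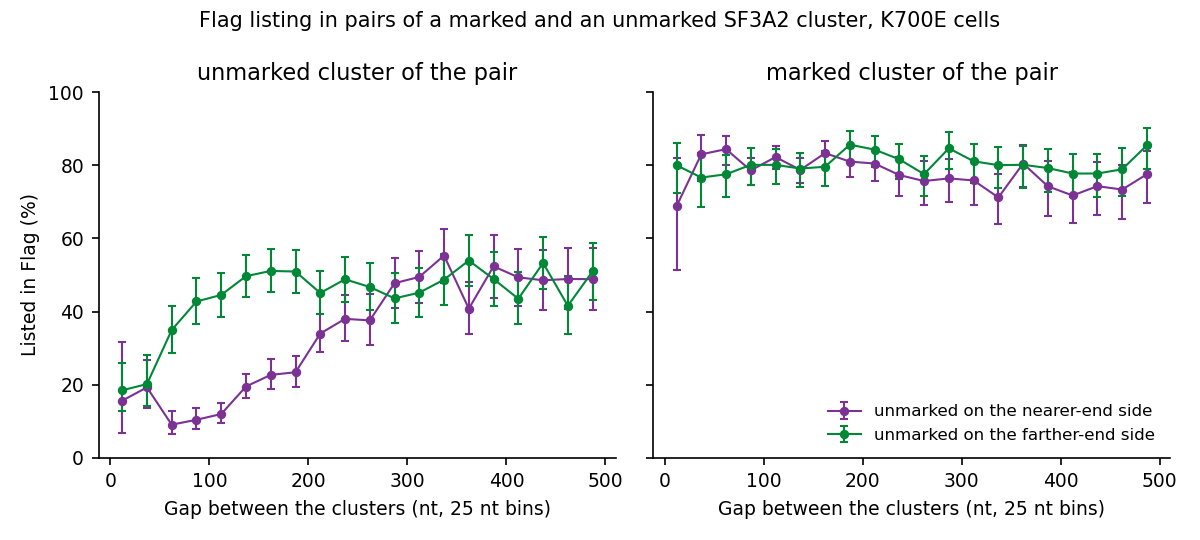
Percent listed in Flag (vertical axes) in pairs of successive SF3A2 clusters, 1 marked and 1 unmarked, by the gap between them in nt (horizontal axes, bins of 25 nt with at least 20 pairs), for the unmarked (left) and the marked cluster (right). Purple points are pairs with the unmarked cluster on the nearer-end side of the marked cluster, green points pairs with it on the other side, and bars are 95% Wilson intervals. Unmarked clusters on the nearer-end side are at 9.06 to 23.4% from 50 to under 200 nt and draw closer to the others from there on. For marked clusters the intervals of the sides overlap from 50 to under 200 nt, and purple points lie below green ones in most bins from 200 nt on.

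Nearer-end unmarked clusters were also more numerous and had fewer branch points. They made up 63.7% of the oriented pairs at 50 to 99 nt (61.0 to 66.4%) and 64.1% at 100 to under 200 nt, against 44.4% at 500 to under 1000 nt. Over 50 to under 200 nt, the 2721 unmarked clusters of the nearer-end side had a median span of 38 nt and 1.40 SF3A2 branch points, and the 1533 of the other side 35 nt and 1.90. Restricted to unmarked clusters with at least 2 SF3A2 branch points, an alternative chosen after seeing the data, the Flag shares at 50 to 99 nt were 25% and 63.2%. The wild-type tables, which did not enter the choice of pairs, gave another readout. There, the SF3A2 table listed 72.7% of the nearer-end clusters (71.0 to 74.4%) and 59.0% of the others (56.5 to 61.4%), while the Flag table listed 18.6% (17.2 to 20.1%) and 39.6% (37.2 to 42.1%). Over all unmarked SF3A2 clusters of K700E cells, the wild-type tables listed 63.5% (SF3A2) and 47.8% (Flag), and over all SF3A2 clusters 69.3% and 58.8%. The nearer-end clusters were thus more often listed again with SF3A2, and less often with Flag, than those of the other side. The paired clusters mostly had the same orientation, in 91.2% (nearer-end side) and 84.0% (other side) of pairs at 50 to 99 nt.

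Single pairs illustrate the layout and do not by themselves show a dependence on side. They are the first by position on chromosomes 1, 2 and 3, a choice made after the pattern was seen. On chromosome 1, the marked cluster at 1323454 to 1323486, with its top-ranked branch point at 1323465, was in both tables. The unmarked cluster at 1323310 to 1323359, on its nearer-end side, was listed with SF3A2 only. On chromosome 3, the marked cluster at 3197978 to 3198015 was in both tables and the unmarked cluster at 3197879 to 3197919 was not in Flag. The first such pair on chromosome 2 differed from these, since neither the marked cluster at 3623355 to 3623387 nor the unmarked one at 3623464 to 3623501 was in Flag. For the other side, the first pair on chromosome 1 was like those of the nearer-end side, with the marked cluster at 982669 to 982697 in Flag and the unmarked one at 982577 to 982605 not. Flag listed both clusters of the pair on chromosome 2, at 10584696 to 10584730 and 10584787 to 10584819. On chromosome 3 it listed the unmarked cluster at 9934430 to 9934464 and not the marked one at 9934546 to 9934585.

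Closely spaced marked clusters followed another order. Of 633 successive pairs of marked clusters under 50 nt apart, 348 had only 1 member in Flag (55.0%, 51.1 to 58.8%), against 8450 of 21133 pairs at 1000 to under 5000 nt. In the 554 pairs with equal orientation, the member on the nearer-end side was in Flag in 74.2% (70.4 to 77.7%) and the other member in 45.8%. Flag listed the nearer-end member alone in 226 pairs and the other alone in 69, a share of 76.6% (71.5 to 81.1%). At 50 to 99 nt the numbers were 29 and 26. From 100 to under 1000 nt the order was inverted, with 42.9 to 45.5% of single listings on the nearer-end side. Wild-type cells gave 86 against 33 under 50 nt, or 72.3% (63.6 to 79.5%).

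Branch points were less often shared than clusters. At the same nucleotide, 120807 branch points were in both tables, 47.6% of the 253912 with SF3A2 (47.4 to 47.8%) and 90.1% of the 134081 with Flag (89.9 to 90.3%). Within the shared clusters, Flag listed 64.9% of the SF3A2 branch points (64.7 to 65.1%), the background for the values by rank. Rank is a score of the authors from 1, the top, to 3. SF3A2 branch points of rank 1 were in Flag in 91.6% of 74242 cases (91.4 to 91.8%), those of rank 2 in 55.7% of 64253 (55.4 to 56.1%) and those of rank 3 in 35.5% of 47727 (35.1 to 36.0%). In the other direction, 96.9% of the Flag branch points of rank 1 were listed with SF3A2, 89.3% of rank 2 and 69.4% of rank 3. Branch points lost from Flag were therefore mostly of lower rank. Of the SF3A2 branch points of rank 2, 37.1% kept that rank in Flag and 13.3% were at rank 1.

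**Figure D3:**
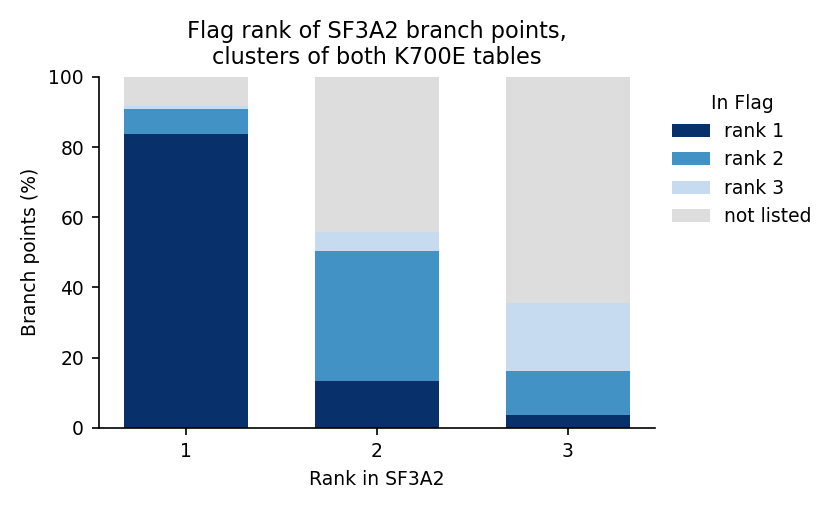
Rank in Flag (colours) of SF3A2 branch points in clusters of both K700E tables, as percent of branch points (vertical axis) for each rank in SF3A2 (horizontal axis). Of rank 1, 83.8% are at rank 1 in Flag as well, and 35.5% of rank 3 are listed in Flag at any rank.

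The distance from the top-ranked branch point also mattered for rank 2. Flag listed 60.2% of the SF3A2 branch points of rank 2 that lay 1 to 4 nt from rank 1 (59.8 to 60.7%), 50.2% of those at 5 to 8 nt (49.4 to 50.9%) and 43.4% of those at 9 nt and more (42.2 to 44.6%). The most frequent distance was 4 nt, with 18011 branch points, of which 61.8% were in Flag (61.0 to 62.5%).

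Most shared clusters had the same main branch point in both immunoprecipitations. Among 69325 shared clusters for which both tables ranked exactly 1 branch point on top, it differed in 10094, or 14.6% (14.3 to 14.8%). The share was 14.3% (14.0 to 14.6%) in marked and 15.1% (14.6 to 15.5%) in unmarked clusters, with intervals that touch. It was 7.58% (7.08 to 8.11%) where SF3A2 listed 1 branch point and 7178 of 44863 clusters differed where it listed 3 or more. In wild-type cells it was 17.1% (16.8 to 17.5%). Where the main branch points differed, the Flag position was mostly known to SF3A2 as an alternative. It had rank 2 there in 70.5% of cases (69.6 to 71.4%) and rank 3 in 12.3%, and was not listed in 17.2% (16.4 to 17.9%). The SF3A2 position was not listed in Flag in 48.5% of cases (47.6 to 49.5%). In 4266 of the 10094 clusters Flag listed only 1 branch point, so the SF3A2 position could not be listed there. In the other direction this held for 764 clusters with 1 SF3A2 branch point. The 2 shares of unlisted positions therefore follow the number of branch points in each table and do not compare the immunoprecipitations.

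The differing branch points were close together and had little direction. The median distance was 4 nt, 56.4% differed by 1 to 4 nt, and 4 nt was the most frequent, with 2457 clusters. Relative to the nearer cluster end, the Flag branch point was closer in 5139 clusters and farther in 4883, or 51.3% closer (50.3 to 52.3%). By mark, the shares were 51.8% (50.6 to 53.0%) in marked and 50.3% (48.7 to 52.0%) in unmarked clusters. In wild-type cells the Flag branch point was closer in 49.2% (48.2 to 50.1%). At 1 nt, the balance in K700E cells was 225 closer and 307 farther, the reverse of the 699 and 643 at 3 nt.

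**Figure D4:**
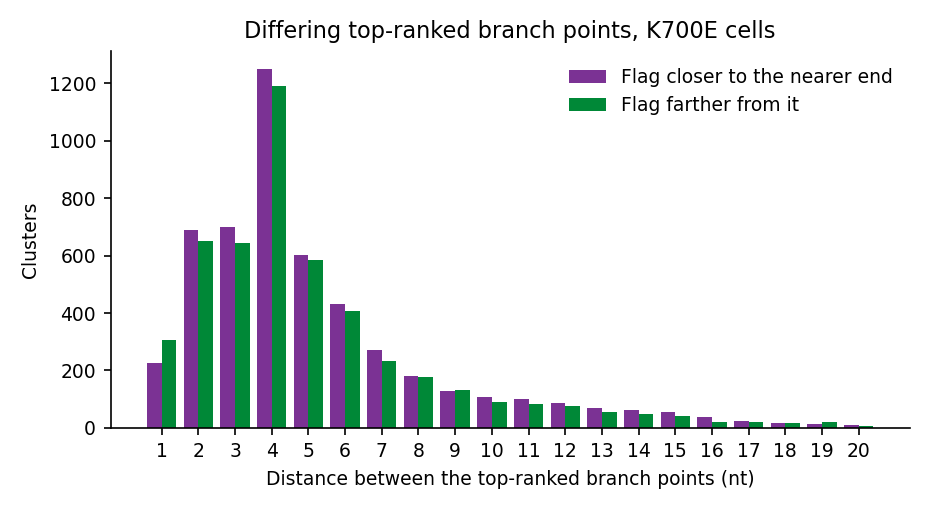
Number of shared clusters (vertical axis) with differing main branch points in SF3A2 and Flag in K700E cells, by distance in nt (horizontal axis, up to 20 nt), coloured purple where Flag had the position closer to the nearer end of the cluster and green where it had the farther one. The 4 nt distance stands out in both directions, with 1251 and 1191 clusters.

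On chromosome 1, the first cluster with a differing main branch point was a marked one at 787997 to 788038. SF3A2 gave rank 1 to 788028, rank 2 to 788026 and rank 3 to 788021, while Flag gave rank 1 to 788021 and rank 2 to 788028. On chromosome 2, the marked cluster at 675642 to 675676 had 675651 first and 675655 second in SF3A2, and the reverse in Flag. The marked cluster at 3170638 to 3170677 of chromosome 3 exchanged the first and second positions as well, 3170664 and 3170669. Clusters with an equal main branch point included 16781 to 16813 on chromosome 1, with 16790 first and 16794 second in both tables, the marked one at 230069 to 230098 on chromosome 2, with only 230078 in both, and the 17 nt cluster at 2553184 to 2553201 on chromosome 3, with only 2553195. The first clusters on 7 other chromosomes spanned 31 to 41 nt where the main branch point differed and 30 to 36 nt where it was equal.

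Fewer branch points per cluster were listed in Flag. In the shared clusters the mean was 2.56 with SF3A2 and 1.83 with Flag, a difference of 0.730 (0.724 to 0.736, normal interval). SF3A2 listed more in 39353 clusters, Flag in 2127, and 31246 were equal. The difference was 0.756 in marked and 0.676 in unmarked clusters. Wild-type cells had means of 2.08 and 1.87, differing by 0.218 (0.212 to 0.224). As in the tables as a whole, the longer table had more branch points per cluster, and size cannot be told apart from immunoprecipitation.

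Clusters found with SF3A2 only mostly lay 200 nt or more from shared clusters, for which the same distance was not computed. Wide spacing was usual, since the median gap to the nearest cluster of either table was 881 nt for shared and 965 nt for SF3A2-only clusters. From SF3A2-only to shared clusters, the median distance between top-ranked branch points was 1970 nt for 21968 marked and 1263 nt for 21579 unmarked ones. Of these, 1099 of the marked (4.72 to 5.30%) and 3650 of the unmarked ones (16.4 to 17.4%) were under 200 nt from a shared cluster. In SF3A2-only clusters of 30 to 38 nt, the main branch point was at most 9 nt from the nearer end in 16.2% (15.8 to 16.6%). This compares with 9.22% for shared clusters in SF3A2 (8.99 to 9.46%) and 9.64% in Flag. It was not particular to SF3A2-only clusters, since Flag-only clusters were at 19.1% (15.4 to 23.5%). Distances of 15 nt or more were also more frequent, at 11.2% of SF3A2-only clusters (10.8 to 11.5%) against 9.45% of shared clusters in SF3A2 (9.22 to 9.68%). By position, the first marked ones were 701779 to 701818 on chromosome 1, with the branch point at 701796, 219020 to 219051 on chromosome 2, with 219029, and 3178895 to 3178941 on chromosome 3, with 3178927. Unmarked ones began with 843403 to 843463 on chromosome 1, 60 nt long with 843429 on top, 272147 to 272181 on chromosome 2, with 272162, and 3181171 to 3181204 on chromosome 3, with 3181193. On 7 other chromosomes the first marked ones spanned 25 to 41 nt and the first unmarked ones 16 to 35 nt.

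The 856 clusters found with Flag only were few and mostly unmarked, and the unmarked ones were often short. Of the 600 unmarked ones, 48.7% spanned under 25 nt (44.7 to 52.7%), against 10.5% of the unmarked clusters of both tables and 4.14% of those with SF3A2 only. A single branch point was listed in 90.7% of the 856 (88.5 to 92.4%), against 46.3% of the shared clusters in Flag (45.9 to 46.7%). The first unmarked ones were 2107160 to 2107177 on chromosome 1 with the branch point at 2107174, 3726501 to 3726517 on chromosome 2 with 3726510 and 3865172 to 3865190 on chromosome 3 with 3865184. Of the 256 marked ones, only 8 spanned under 25 nt (1.59 to 6.04%), and their median span was 35 nt. By position, the first marked ones were 6202670 to 6202688 on chromosome 1, which was among these 8, and 10132077 to 10132128 on chromosome 2, of 51 nt. On chromosome 3, 33623464 to 33623507 spanned 43 nt. The first ones on 7 other chromosomes spanned 16 to 48 nt where marked and 16 to 37 nt where unmarked.

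The wild-type tables, which took no part in forming the classes, listed the shared clusters most often. Of the clusters of both K700E tables, 86.4% were in the wild-type SF3A2 table (86.2 to 86.7%) and 80.2% in the wild-type Flag table (79.9 to 80.5%). For clusters with SF3A2 only the shares were 40.8% (40.3 to 41.2%) and 23.1% (22.7 to 23.5%). For clusters with Flag only they were 33.5% (30.4 to 36.8%) and 16.1% (13.8 to 18.7%). Neither wild-type table listed 9.92% of the shared clusters, 52.7% of the SF3A2-only clusters and 59.8% of the Flag-only clusters. Over all SF3A2 clusters of K700E cells, the background, 69.3% were in the wild-type SF3A2 table and 58.8% in the wild-type Flag table. The 10041 clusters with SF3A2 only in K700E cells that wild-type Flag listed were the 23.1% given above, below this background. Among the SF3A2-only clusters the mark went with wild-type Flag listing, at 27.8% of marked (27.3 to 28.4%) and 18.2% of unmarked ones (17.7 to 18.7%), while the wild-type SF3A2 table listed 39.8% and 41.8%.

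**Figure D5:**
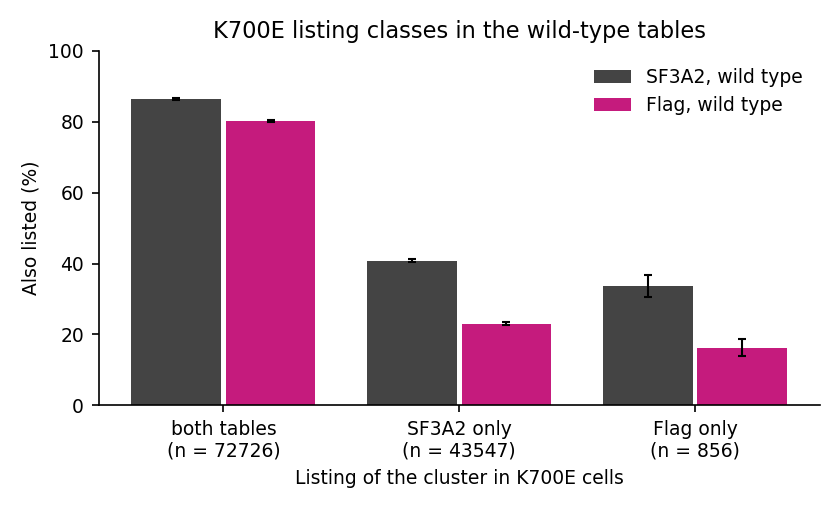
Percent of clusters (vertical axis) also listed in the wild-type SF3A2 (grey) and wild-type Flag table (pink), for clusters of both K700E tables, of SF3A2 only and of Flag only (horizontal axis, with the number of clusters). Bars with 95% Wilson intervals start at 0, and the shared clusters are highest in both tables, at 86.4% and 80.2%.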

How the data were processed

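Per the series design text, nuclear extracts were treated with nucleases and immunoprecipitated, U2 snRNA fragments were degraded with RNase H, and iCLIP reagents served for the libraries. Inserts were 24 to 55 nt, per the labels, with 11 to 14 PCR cycles, while the read layout in the protocol names HEK293 RNA and another insert length. The submitters' processing notes name STAR 2.7.6a, cutadapt and the hg19 build. The cluster caller, the pooling of libraries and the branch point predictor are not given in the sources used.

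The deposited tables hold, per the file headers, positions of clusters and branch points and the rank, a score (1 to 3) made by the authors. The origin of the positions, 0 or 1, is unknown, and they stand here unaltered. In SF3A2 K700E, 1 row without an identifier was left out. Shared identifiers had equal coordinates.

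Span is end minus start. Gap is the distance to the nearest other cluster listed in either table of the same genotype or, in pairs, to the next SF3A2 cluster. Computation used matplotlib 3.10.9, scipy 1.17.1, numpy 2.4.6, pandas 2.3.3 and Python 3.11.15, and was tested on simulated data. Named clusters are those with the lowest start in their class on chromosomes 1, 2 and 3, with ranges over 7 other chromosomes. The questions and lists were chosen with earlier results of these data known. No hg19 sequence or annotation was used here, so the planned sequence comparison was not run, and no gene is named.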

Additional observations from a re-analysis of the deposited data

Results flagged for a closer look

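Listing of short against longer clusters differed in direction between the 2 genotypes over all clusters and among unmarked ones, but not among marked ones. In K700E cells, SF3A2 clusters of 15 to 24 nt were listed in Flag more often than longer ones, by 10.7 percentage points (73.0% of 3489 against 62.2% of 112784, interval 9.25 to 12.2). In wild-type cells the difference was -17.7 points (56.8% of 3885 against 74.4% of 82218). Short clusters were nearly all unmarked and longer ones mostly marked, so these values also compare unmarked with marked clusters. Among unmarked clusters alone, the difference was 22.9 points in K700E cells (73.7% against 50.9%, interval 21.3 to 24.4) and -3.05 points in wild-type cells (56.9% against 59.9%, interval -4.71 to -1.38). Among marked clusters, short ones were listed less often in both genotypes, with differences of -24.7 points in K700E cells (88 short clusters) and -31.2 points in wild-type cells (70 short clusters). The difference between genotypes was not tested, since each genotype has 1 table per immunoprecipitation. The top-ranked branch point of shared short clusters differed in 19.1% (17.5 to 20.8%) in wild-type and 12.9% (11.6 to 14.2%) in K700E cells. Table sizes differ between the genotypes, and their part in this was not tested.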

How the results depend on the processing

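Of 55 alternative values for 22 results, 32 stayed within the interval of the reported value and 23 did not, with no change of direction. The causes were not tested. Matching by overlap kept every shared cluster, since shared identifiers had equal coordinates, so those alternatives could move little and say little about robustness. Marked clusters alone were not among the alternatives for short against longer clusters, and there the difference was reversed, at -24.7 percentage points in K700E cells. In clusters of 30 to 38 nt, 66.3% of SF3A2 clusters were in Flag, 99.4% of Flag clusters were in SF3A2, 51.3% of unmarked clusters under 200 nt from the nearest were in Flag (42.7% as reported), and the top-ranked branch point differed in 12.1%. In clusters at least 100 nt from any other, 63.2% of SF3A2 clusters were in Flag, the odds ratio of the mark was 1.89 and the difference in branch points per cluster 0.736. With 2 or more branch points the odds ratio was 1.55. SF3A2 branch points found in Flag were 49.7% within 1 nt and 57.1% within 3 nt. Over all SF3A2 clusters, including those not in Flag, 51.9% of the SF3A2 branch points of rank 1 were also of rank 1 in Flag. Within shared clusters it was 83.8%. Retention of ranks 1, 2 and 3 was 92.1%, 59% and 41.8% within 1 nt, and 94.5%, 67.4% and 38.3% in clusters listing all 3 ranks. Counting only distances of 2 nt or more, 13.8% of top-ranked branch points differed.

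Among 13 alternatives chosen after seeing the data, unmarked clusters with 2 or more branch points at 50 to 99 nt were in Flag in 25% (nearer-end side) and 63.2% (other side). The excess of short over longer clusters was 22.9 percentage points among unmarked clusters, 36 among clusters with 1 branch point and 21.3 among clusters 5000 nt or more from the nearest. Unknown depth limits every absence. No paired analysis was possible because the tables carry no replicate numbers, and for the same reason no library could be left out.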

Other observations

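Listing in Flag differed by a few percentage points between chromosomes. The share of SF3A2 clusters in Flag ran from 58.0% on chromosome 13 (55.8 to 60.1%) to 65.1% on chromosome 21 (62.7 to 67.5%), chromosome Y with 5 clusters left out. It also differed with the local number of clusters, and was lowest in intervals with 2 to 5. In 100 kb intervals with a single SF3A2 cluster, 58.1% were in Flag (56.2 to 60.0%) and 29.2% were marked. In those with 2 to 5 SF3A2 clusters, 53.1% were in Flag (52.1 to 54.0%), in those with 21 to 50 it was 65.3% (64.9 to 65.8%), and in those with more, 66.8% (65.7 to 67.8%). In the last 3 ranges named, 53.4%, 63.4% and 66.0% of clusters were marked.

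Among 1775 intervals with at least 20 SF3A2 clusters, some are named because they ranked at an end, as single shares with wide counting error. On chromosome 19 from 7.5 to 7.6 Mb, 5 of 23 SF3A2 clusters were in Flag, though 20 of the 23 were marked. On chromosome 9 from 32.4 to 32.5 Mb it was 6 of 23, with 22 marked, and on chromosome 13 from 99.5 to 99.6 Mb 6 of 21, with 21 marked. At the other end, all 20 clusters on chromosome 1 from 212.5 to 212.6 Mb and 20 of 21 on chromosome 6 from 159 to 159.1 Mb were in Flag. What chance alone would give was not computed.

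The SF3A2 K700E row without an identifier lies on chromosome 7 at 150761689 to 150761755, with a branch point of rank 1 at 150761743. Cluster numbers ran to 132254 while the 4 tables held 122826 distinct clusters, so some numbers occur in none of them.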
